A study of Mus musculus with 10 samples.

Results

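The comparison set ovaries lacking retinoic acid receptors in Sf1-Cre-active cells (Rar mutant) against control ovaries, over every gene of the deposited count table. It used 8 of the 10 libraries of the series, 3 Rar mutants and 5 controls, chosen by their titles. The libraries that also carried a floxed Dmrt1 allele were left out. All 8 came from whole ovaries of mice 6 weeks of age on a mixed C57BL/6 and 129 background, wild type for Dmrt1 and with both alleles of Rara, Rarb and Rarg floxed. Controls had no Cre, and Rar mutants carried Sf1-Cre, in which the promoter of Nr5a1 (also called Sf1) drives the recombinase in somatic cells of the gonad and in other steroid-producing tissues. Controls therefore differ from mutants in the presence of Cre as well as in the deletion, and the 2 cannot be told apart here. Oocytes, blood vessels and blood cells of a mutant ovary lie outside the Cre lineage and contribute RNA to each library.

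Retinoic acid is made from vitamin A by retinol and retinaldehyde dehydrogenases, and is broken down by the CYP26 enzymes. It acts through the nuclear receptors RARA, RARB and RARG, which bind response elements on DNA together with retinoid X receptors. In the fetal ovary it is best known as a signal linked to entry of germ cells into meiosis, and the title of the series asks whether the somatic cells of the ovary need it.

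Libraries held 23502220 to 25920131 counts over 24306 genes. Levels are given as CPM after TMM scaling, in which 3 counts, the limit that a count of 0 allows, correspond to 0.116 to 0.128 CPM before scaling. Markers of the ovary were present in every library. Foxl2, a granulosa cell transcription factor, stood at 45.7 to 62.0 CPM in controls. In mutants 1 to 3 it stood at 57.6, 33.1 and 23.2 CPM. Gdf9, an oocyte growth factor, lay between 41.3 and 136.6 CPM over the 8 libraries. The numbers in the titles form a possible batch, since control 1 and mutant 1 have numbers under 7800 and the other 6 libraries have numbers above it. In a principal component analysis of log2 CPM, on the first component (34.5% of variance) control 1 and mutant 1 lay at -50.1 and -57.5, and the other 6 libraries between -21.0 and 61.9. On the second component (22.7%) the 3 mutants lay between 21.6 and 51.5 and the 5 controls between -58.0 and 12.3. Tests are therefore given over all 8 libraries, over all 8 with a term for the title number, and over the 6 libraries of higher title number alone.

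**Figure D1:**
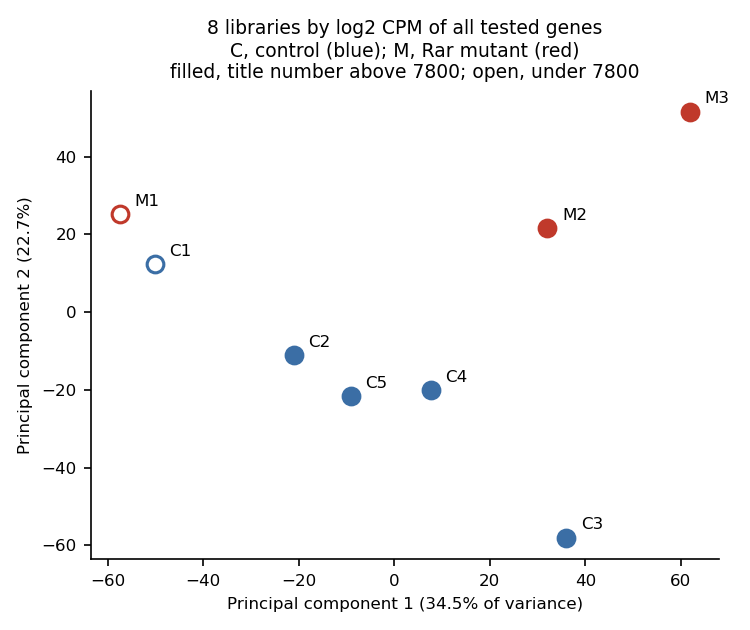
First 2 principal components of log2 CPM over the tested genes, 1 point per library (blue C, control; red M, Rar mutant; open, title number under 7800). Control 1 and mutant 1 lie together at the left, and each mutant lies above every control on the second axis.

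Few genes passed the test over all 8 libraries. With edgeR's quasi-likelihood test and Benjamini-Hochberg adjustment over 19431 genes, 1 gene (0.00515%) had an adjusted p under 0.05, Tdh, and 1586 genes had an unadjusted p under 0.05. With the title-number term 2 genes (0.0103%) passed, Tdh and Nr6a1, and 2364 had an unadjusted p under 0.05. Within the 6 libraries of higher title number, 2 mutants against 4 controls, 142 of 19610 genes passed: 118 were called higher (0.602%) and 24 lower (0.122%) in mutants. Leaving out mutant 1 from the fit of 8 raised the calls from 1 to 219. In the fit with the term, leaving out control 1 gave 114 calls and leaving out mutant 1 gave 142; each leaves its title-number set with 1 library. Without control 3 or mutant 2, the 6-library comparison gave 349 and 474 calls. Without control 2, 4 or 5 or mutant 3, it gave 65, 27, 34 and 46. A lone mutant there is assumed to vary like the controls. DESeq2, run as an alternative on the same 8 libraries, called 207 genes higher (0.971%) and 99 lower (0.465%) of 21309. Without any test, all 3 mutants lay above all 5 controls for 519 tested genes (2.67%) and below them for 509 (2.62%). The p-values measure the spread between these libraries, since the labels do not tie them to separate animals.

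The floxed genes were examined first. Rarg (chromosome 15, 102234938 to 102257517 of GRCm38) stood at 23.95, 27.2, 32.0, 30.01 and 31.7 CPM in controls 1 to 5 and at 15.02, 18.9 and 17.1 CPM in mutants 1 to 3. The groups did not overlap, with a log2 fold change of -0.77 (SE 0.16). Its adjusted p with edgeR was 0.174 over 8 libraries, 0.0824 with the title-number term and 0.0732 over 6 libraries, while DESeq2 gave 0.00281. Rara, the most widely expressed receptor, stood at 19.8, 24.8, 36.3, 23.4 and 22.5 CPM in controls and at 20.6, 30.2 and 28.2 CPM in mutants. Rarb, a receptor whose own gene is a known retinoic acid target, stood at 2.38, 2.91, 4.48, 2.59 and 2.99 CPM in controls and at 2.54, 2.84 and 2.35 CPM in mutants. The mutants lay within the range of the controls for Rara, and all but mutant 3 did for Rarb (log2 fold changes 0.05, SE 0.22, and -0.25, SE 0.26; edgeR adjusted p = 0.975 and 0.896). A count over a whole gene includes exons outside the deletion and cells without Cre, and the exons flanked by loxP sites are not given in the sources used here. These levels are thus no direct measure of the deletion. The partners Rxra and Rxrb differed by -0.14 (SE 0.12) and -0.20 (SE 0.16) on the log2 scale, with edgeR adjusted p of 0.854 and 0.837.

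Cyp26a1, the enzyme that hydroxylates retinoic acid and a textbook target of its receptors, was nearly absent from the mutants. It had 6, 15, 16, 20 and 14 counts in controls 1 to 5 and 0, 1 and 1 counts in mutants 1 to 3. Relative to total counts the controls held 22.1 times as many, with an exact 95% interval of 5.9 to 186.1 that covers counting error alone. The edgeR adjusted p was 0.15 over 8 libraries, 0.0824 with the title-number term and 0.036 over 6 libraries, where it was called lower. That call was lost without control 2, 4 or 5 or mutant 2 or 3 (adjusted p up to 0.219). DESeq2 gave an adjusted p of 0.015 over 8 libraries. The window around its start site is shown because it holds a retinoic acid response element-like repeat. It is RefSeq sequence of build GRCm38.p6, chr19:37697558-37697857, plus strand, from 250 bases before to 50 bases after the start, with the repeat in capitals.

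Cyp26a1: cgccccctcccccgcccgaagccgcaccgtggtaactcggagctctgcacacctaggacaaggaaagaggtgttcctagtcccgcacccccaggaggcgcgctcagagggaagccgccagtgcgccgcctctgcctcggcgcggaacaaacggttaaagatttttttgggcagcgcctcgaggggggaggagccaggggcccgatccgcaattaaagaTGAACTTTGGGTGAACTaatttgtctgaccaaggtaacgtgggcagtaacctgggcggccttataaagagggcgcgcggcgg

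The capitals mark 2 half-sites separated by 5 bases on the opposite strand, beginning 32 bases before the start. The search covered the half-site AGGTCA, the variant GGGTCA, the variant AGTTCA and the variant GGTTCA as direct repeats, in any pairing, with 5 or 2 bases between them, on both strands. A repeat with 5 bases was found in 32 of 32851 promoter windows (0.0974%), and one with 2 bases in 88 (0.268%). Of the genes in the authors' deposited table of differential expression that had a window, Cyp26a1 held the one match among 33 lower genes, and none of 80 higher genes held either repeat. A match is a description of the letters and was not tested as a site.

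Other genes of the retinoic acid pathway mostly lay in the range of the controls. Of the 12 listed degradation and target genes found, 9 were tested, with a median log2 fold change of -0.06 beside -0.01 over all genes tested. Among them Cyp26a1 and Hsd17b2 had all 3 mutants below all controls. Hsd17b2, which oxidises oestradiol to oestrone, stood at 6.14, 9.58, 10.6, 11.2 and 9.47 CPM in controls and at 4.69, 2.60 and 1.05 CPM in mutants 1 to 3. It was called lower over 6 libraries (log2 fold change -2.48, SE 0.36, edgeR adjusted p = 0.0293) and not over 8 (0.236). Without control 2, 4 or 5 or mutant 3 that call was lost (adjusted p up to 0.112). DESeq2 gave it an adjusted p of 0.00258 over 8 libraries. Cyp26b1, the CYP26 enzyme with the higher level here, stood between 2.12 and 5.14 CPM in controls and at 3.78, 4.79 and 5.04 CPM in mutants. Rarres2, the gene of chemerin, had a log2 fold change of -0.47 (SE 0.21, edgeR adjusted p = 0.624).

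Of 19 tested genes of retinoic acid synthesis and transport, 9 had a positive and 10 a negative log2 fold change, with a median of -0.02, and none was called by edgeR in any of the 3 comparisons. The groups did not overlap for Adh7 and Lrat. Adh7, an alcohol dehydrogenase that oxidises retinol, stood at 2.18, 5.65, 0.717, 1.51 and 2.71 CPM in controls and at 27.9, 15.4 and 17.5 CPM in mutants. Its log2 fold change was 2.98 (SE 0.52), with an edgeR adjusted p of 0.15 and a DESeq2 adjusted p of 1.01e-05. Lrat, which stores retinol as retinyl esters, stood at 43.5, 21.2, 29.2, 11.4 and 15.8 CPM in controls and at 9.46, 5.64 and 2.98 CPM in mutants. Its log2 fold change was -2.003 (SE 0.50), with edgeR adjusted p of 0.243 over 8 libraries and 0.0824 with the term, and 0.00258 by DESeq2. Rdh10, which makes retinaldehyde, was high in 1 library: 56.3 CPM in mutant 3, against 15.5 and 22.3 CPM in mutants 1 and 2 and 11.4 to 17.3 CPM in controls. The retinaldehyde dehydrogenases Aldh1a1 and Aldh1a2 overlapped between groups, at 1180 to 3654 and 63.9 to 111.2 CPM in controls and 912.0 to 2108 and 87.4 to 138.3 CPM in mutants.

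**Figure D2:**
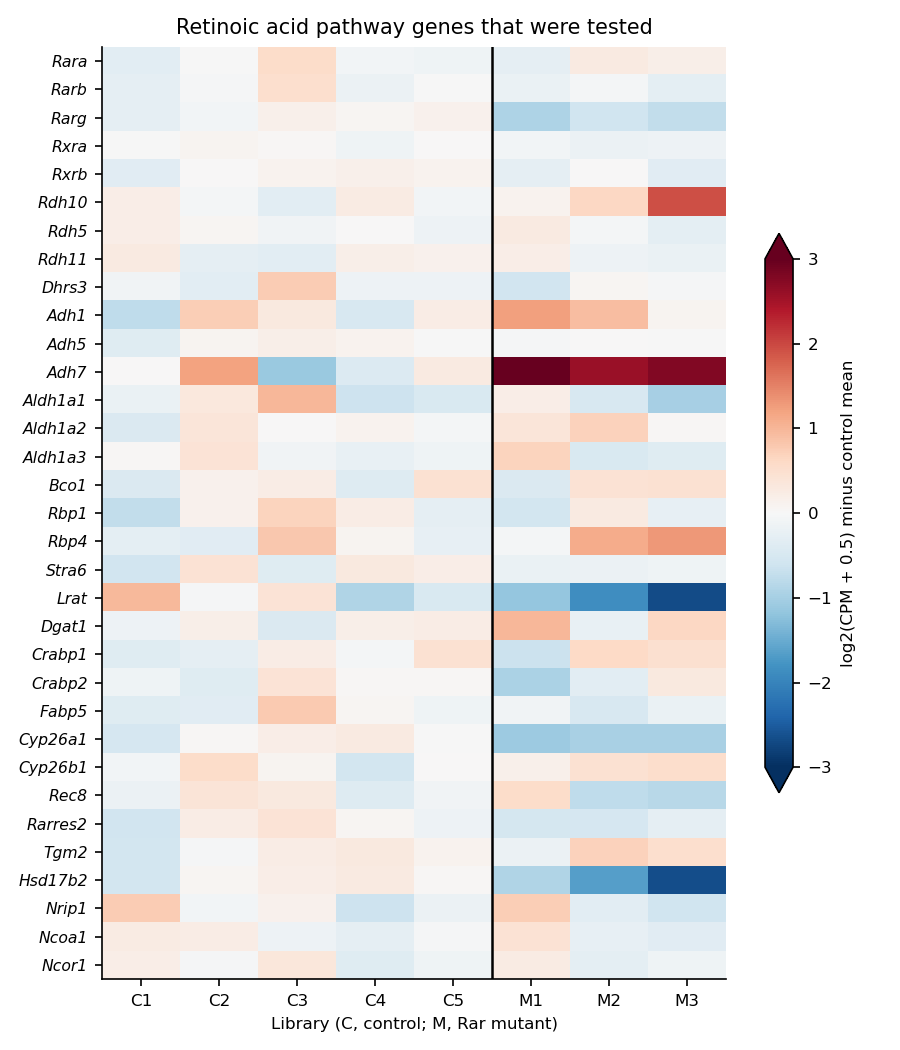
Tested genes of the retinoic acid pathway in each library, as log2(CPM + 0.5) minus the control mean (red higher, blue lower, scale from -3 to 3). Adh7 is higher, and Rarg, Lrat, Cyp26a1 and Hsd17b2 lower, in all 3 mutants, and Rdh10 is high in mutant 3.

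Several genes differed alike in the 3 mutants. Tdh, the mitochondrial threonine dehydrogenase (chromosome 14, 63492347 to 63509092), stood at 0.525, 1.06, 0.538, 0.695 and 0.747 CPM in controls 1 to 5 and at 13.4, 9.78 and 11.5 CPM in mutants 1 to 3. It rose 16.1-fold (log2 fold change 4.01, SE 0.27, edgeR adjusted p = 0.000917), and remained called in each fit that left out 1 library. The other 10 listed genes of threonine and glycine metabolism were not called by edgeR. Gcat, the enzyme of the next step, stood at 5.49 to 13.0 CPM in controls and at 9.46, 15.5 and 7.15 CPM in mutants.

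Nr6a1, an orphan nuclear receptor known from germ cells, stood at 16.3, 14.1, 11.9, 10.5 and 11.2 CPM in controls and at 48.2, 33.8 and 40.0 CPM in mutants. Its log2 fold change was 1.67 (SE 0.19), with an edgeR adjusted p of 0.0531 and a DESeq2 adjusted p of 4.08e-11 over 8 libraries. It rose in the fit with the title-number term (1.61, SE 0.13, edgeR adjusted p = 0.00928), a call lost without control 4, control 5 or mutant 3 (adjusted p up to 0.0725). It also rose over 6 libraries (1.63, SE 0.17, adjusted p = 0.00774), a call lost without control 4 or mutant 3. Nr6a1 lies on chromosome 2 at 38723370 to 38927688, next to Nr5a1 at 38692656 to 38714542, the gene whose promoter drives Cre. Nr5a1 stood at 197.2, 183.7, 309.7, 162.9 and 162.4 CPM in controls and at 349.4, 262.3 and 274.4 CPM in mutants, where control 3 overlapped the mutants (log2 fold change 0.54, SE 0.23, edgeR adjusted p = 0.587). The neighbours Nek6 and Psmb7 had log2 fold changes of 0.25 and 0.20 (edgeR adjusted p = 0.813 and 0.805). The pseudogene Adgrd2-ps stood at 0.425 to 0.986 CPM in controls and at 2.11, 1.18 and 1.26 CPM in mutants (edgeR adjusted p = 0.316). Whether counting used strand is not given in the sources used here, so reads of Nr6a1 and its antisense gene cannot be told apart. The antisense gene Nr6a1os, as counted, stood far lower, at 0.667 to 1.93 CPM in controls and 0.835, 0.852 and 0.841 CPM in mutants (log2 fold change -0.37, SE 0.40, edgeR adjusted p = 0.898). Nr5a1os, antisense to Nr5a1, stood at 0.232 to 1.121 CPM in controls and at 1.87, 1.18 and 1.13 CPM in mutants, with no overlap (log2 fold change 1.15, SE 0.51, edgeR adjusted p = 0.607).

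Further genes with all 3 mutants above all controls included members best known from neurons, chosen by their small p. Eef1a2, an elongation factor isoform, stood at 0.242, 0.393, 0.493, 0.657 and 0.707 CPM in controls and at 3.66, 2.80 and 2.35 CPM in mutants. Scn3b, a sodium channel subunit, stood at 2.50, 0.942, 2.56, 2.32 and 1.53 CPM in controls and at 7.75, 7.31 and 11.4 CPM in mutants. Both were called higher over 6 libraries (edgeR adjusted p = 0.0317 and 0.0418), and not over 8 (0.138 each). Sez6l, Adamts3 and Chst11, a chondroitin sulphotransferase, also had every mutant above every control, with log2 fold changes of 2.02 (SE 0.29), 1.87 (SE 0.29) and 1.02 (SE 0.16) and the same edgeR adjusted p of 0.138. Over 6 libraries Adamts3 and Chst11 were called higher (edgeR adjusted p = 0.02 and 0.0141), and Sez6l was not (0.0538). Pappa2, which cleaves binding proteins of insulin-like growth factors, stood at 0.323, 1.18, 0.359, 0.270 and 0.196 CPM in controls and at 3.34, 22.3 and 9.84 CPM in mutants. It was called higher over 6 libraries (log2 fold change 4.99, SE 0.64, edgeR adjusted p = 0.0286), and not over 8 (0.138). DESeq2 over 8 libraries gave Eef1a2, Scn3b and Pappa2 adjusted p of 9.79e-08, 8.91e-07 and 3.76e-09. It gave Sez6l, Adamts3 and Chst11 adjusted p of 1.01e-05, 1.39e-05 and 7.61e-06. None of these calls over 6 libraries held in every fit that left out 1 library: that of Eef1a2 was lost without control 2, 4 or 5 or either mutant, and that of Scn3b without control 2, 4 or 5 or mutant 3. Those of Adamts3 and Chst11 were lost without control 4 or 5 or mutant 3, and that of Pappa2 without control 3, 4 or 5 or mutant 3.

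On the lower side, Gpr55, a receptor for lysophospholipids, stood at 1.74, 2.51, 3.36, 4.75 and 1.97 CPM in controls and at 0.119, 0.365 and 0.126 CPM in mutants. It was called lower over 6 libraries (log2 fold change -3.64, SE 0.58, edgeR adjusted p = 0.0373), a call lost without control 2, 4 or 5 or mutant 3. Sectm1b stood at 8.36, 26.5, 9.33, 16.4 and 9.04 CPM in controls and at 2.62, 1.26 and 1.47 CPM in mutants, and was called lower there too (edgeR adjusted p = 0.0481). Its call was lost without control 4 or 5 or either mutant. Plekha6 stood at 13.9 to 18.8 CPM in controls and at 6.76, 6.66 and 8.11 CPM in mutants (log2 fold change -1.20, SE 0.18, edgeR adjusted p = 0.138 over 8 libraries). Gpr55 and Sectm1b also had an edgeR adjusted p of 0.138 over 8 libraries. DESeq2 there gave Gpr55, Sectm1b and Plekha6 adjusted p of 3.32e-08, 7.84e-08 and 9.41e-07.

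**Figure D3:**
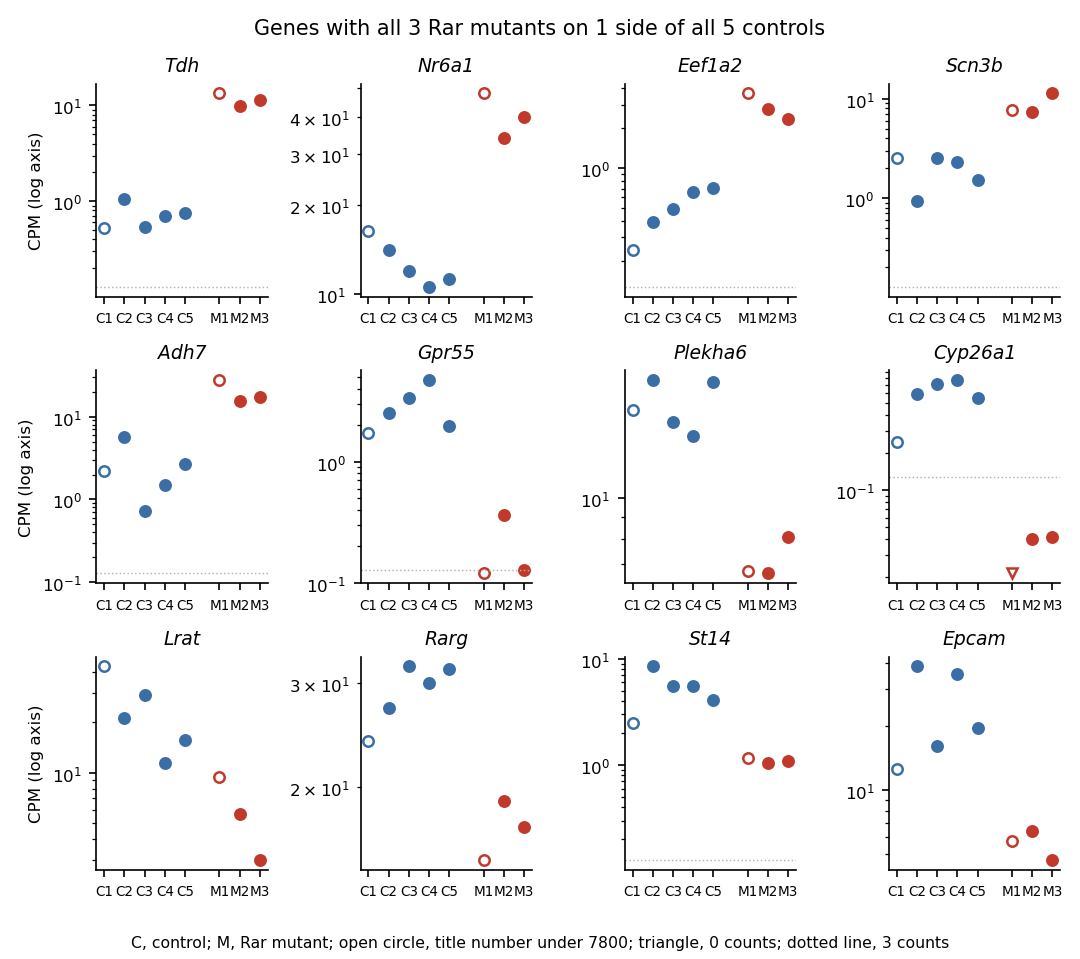
CPM of 12 genes in each library on log axes (C, control; M, Rar mutant; open symbols, title number under 7800; triangle, 0 counts; dotted line, 3 counts). For each gene, picked for this pattern, all 3 mutants lie on 1 side of the 5 controls.

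Epithelial junction genes and their proteases had lower values in the mutants, without edgeR calls over 8 libraries. Of 20 listed genes, all tested, 19 had a negative log2 fold change, with a median of -0.82 beside -0.01 over all genes. All 3 mutants lay below all controls for 8 of 20, beside 2.62% of all tested genes, and DESeq2 called 7 of 20 lower, beside 0.465%. The list was chosen with earlier results of these data known. The authors' deposited table of the same 8 libraries holds 7 of the 20 as lower, so these shares are descriptions and no test. No member was called by edgeR over 8 libraries. The summed level was 187.8 to 242.2 CPM in controls and 134.0, 148.1 and 145.7 CPM in mutants, so that the groups did not overlap. Epcam, an epithelial adhesion molecule, stood at 12.6, 38.5, 16.2, 35.3 and 19.6 CPM in controls and at 5.72, 6.37 and 4.67 CPM in mutants. Cdh1, the gene of E-cadherin, stood at 10.3, 21.4, 10.4, 17.9 and 16.0 CPM in controls and at 3.22, 5.48 and 5.72 CPM in mutants. Both had an edgeR adjusted p of 0.17 over 8 libraries and DESeq2 adjusted p of 2.8e-05 and 0.000241. St14, the membrane protease matriptase, stood at 2.50, 8.48, 5.52, 5.56 and 4.09 CPM in controls and at 1.15, 1.06 and 1.09 CPM in mutants. It was the member called over 6 libraries (log2 fold change -2.45, SE 0.36, edgeR adjusted p = 0.0305), a call lost without control 4 or 5 or either mutant. Ocln, Marveld2 and Marveld3 of the tight junction, the adaptor Grb7 and the scaffold Cnksr1 were the other 5 with no overlap. Of 12 surface epithelium markers 10 had a negative log2 fold change, with a median of -0.19, and neither edgeR nor DESeq2 called one over 8 libraries. Their summed level overlapped, at 368.6 to 625.3 CPM in controls and 377.5, 405.4 and 464.7 CPM in mutants. The keratin gene Krt7 stood at 13.97 to 58.2 CPM in controls and at 8.58, 24.2 and 23.3 CPM in mutants (log2 fold change -1.04, SE 0.47, edgeR adjusted p = 0.624). Lrrn4 and Msln had log2 fold changes of -0.93 and -0.48, and the keratins Krt8 and Krt18 of -0.03 and -0.27. The part of the surface epithelium in the lower junction genes was not tested. In whole ovary, fewer cells of a type and less RNA per cell cannot be told apart.

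Genes of ovarian and testicular somatic fate had no edgeR call, and a few members differed in level. Of 15 ovarian fate genes, 5 had a positive and 10 a negative log2 fold change (median -0.08), and edgeR called none in the 3 comparisons. Irx3 and Esr2 had all mutants below all controls, at 16.8 to 23.5 and 68.7 to 86.8 CPM in mutants against 30.3 to 37.6 and 93.5 to 143.0 CPM in controls (edgeR adjusted p = 0.201 and 0.491). Runx1 stood at 131.6 and 244.0 CPM in mutants 2 and 3, against 34.2 CPM in mutant 1 and 21.2 to 58.3 CPM in controls (log2 fold change 2.01, SE 0.51, edgeR adjusted p = 0.253). DESeq2 called Runx1 higher and Irx3 lower (adjusted p = 0.0109 and 0.00971). Among genes of Sertoli cells and testis fate, Sox9 stood at 1.57 to 2.91 CPM in controls and 2.70 to 2.82 CPM in mutants, and Dmrt1 had 0 counts in all 8 libraries. Gata1, a transcription factor of Sertoli cells and of red blood cell precursors, had all mutants below all controls, at 2.82, 2.31 and 1.14 CPM against 3.27 to 7.40 CPM (log2 fold change -1.26, SE 0.38, edgeR adjusted p = 0.361). Rhox5, a homeobox gene, was high in mutant 3 alone, at 7.99 CPM against 0.510 to 0.762 CPM in the other 7 libraries. The median log2 fold change of this list was -0.04 over 12 tested genes, and none was called by edgeR.

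A second set of genes differed in mutants 2 and 3, while mutant 1 lay with the controls. Akr1b7, an aldo-keto reductase abundant in the adrenal cortex (chromosome 6, 34412334 to 34423142), stood at 0.525, 0.393, 0.269, 0.734 and 0.275 CPM in controls. It stood at 0.397 CPM in mutant 1, and at 242.4 and 255.6 CPM in mutants 2 and 3. It rose over 6 libraries (log2 fold change 9.19, SE 0.31, edgeR adjusted p = 2.98e-05), a call kept in all 6 fits that left out 1 library. Over 8 libraries its edgeR adjusted p was 0.138 and its DESeq2 adjusted p was 1.2e-07. Ybx1, an RNA-binding protein gene, stood at 313.9 to 533.6 CPM in controls, 493.8 CPM in mutant 1, and 1904 and 2044 CPM in mutants 2 and 3. Its copy Ybx1-ps2 stood at 14.7 to 25.9, 27.7, 92.4 and 94.2 CPM in the same order, so that mutant 1 lay just above the controls, and reads of the 2 may be shared. Dlk1, a Notch pathway ligand, stood at 0.848 to 2.04 CPM in controls, 1.31 CPM in mutant 1, and 10.1 and 11.4 CPM in mutants 2 and 3. Inhbb, the beta B subunit of inhibin and activin, went the other way: 623 to 718 CPM in controls, 666.8 CPM in mutant 1, and 127.1 and 159.0 CPM in mutants 2 and 3. Ybx1, Ybx1-ps2, Dlk1 and Inhbb were called over 6 libraries (edgeR adjusted p = 0.00433, 0.00481, 0.00486 and 0.00414). They were among 18 of the 142 calls kept in all 6 fits that left out 1 library. The 18 also held genes with all 3 mutants above all controls, among them Tdh, Frmd5, Fgf1 and Scg2. DESeq2 over 8 libraries gave Ybx1, Ybx1-ps2 and Dlk1 adjusted p of 0.00219, 0.00095 and 0.00324. It gave Inhbb none.

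Mutant 1 and control 1 took no part in the 6-library comparison. Of the 118 genes called higher there, mutant 1 lay above control 1 for 85, beside 53.9% of all tested genes. Of the 24 called lower, mutant 1 lay below control 1 for 17, beside 46.1%. All 3 mutants lay above all 5 controls for 53 of the 118, beside 2.67% of the genes tested over 8 libraries. They lay below all controls for 13 of the 24, beside 2.62%. The counts of 53 and 13 reuse the libraries that chose the genes, so they give no separate support. The size differed: over the 118 genes, the median log2 ratio with 0.5 CPM added was 1.99 for mutants 2 and 3 to controls 2 to 5 and 0.31 for mutant 1 to control 1. For the 24 genes these were -1.74 and -0.36. The first ratio of each pair comes from the libraries that chose the genes. A difference between the mutants by title number was not tested, because the lower set holds 1 library of each group.

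Other genes of the adrenal cortex list were examined beside Akr1b7. Cyp11b1, the enzyme that makes corticosterone, stood at 0, 0.589, 0.0897, 0.0772 and 0.432 CPM in controls and at 2.42, 48.9 and 12.3 CPM in mutants. It was called higher over 6 libraries (log2 fold change 6.64, SE 0.77, edgeR adjusted p = 0.0236), a call lost without control 2, 4 or 5. The defining markers Cyp21a1 and Mc2r, the adrenal 21-hydroxylase and the corticotropin receptor, were at or near 0, with no more than 0.224 and 0.358 CPM in any library. Cyp11b2, the aldosterone synthase gene, had 0, 0, 0, 1 and 0 counts in controls and 3, 25 and 8 counts in mutants 1 to 3, so that the groups did not overlap. It was too low for the edgeR test, and DESeq2 gave an adjusted p of 0.00707. Mrap, a corticotropin receptor partner also found in fat, stood at 27.9 to 108.1 CPM in controls and at 149.1, 279.8 and 520.9 CPM in mutants (edgeR adjusted p = 0.174). Nr0b1, a repressor of Nr5a1, stood at 6.12 to 10.5 CPM in controls and at 1.19, 2.39 and 3.99 CPM in mutants (edgeR adjusted p = 0.183). Of the 10 genes 7 were tested, and edgeR called 3 higher over 6 libraries, beside 0.602% of all genes. The list was chosen with earlier results of these data known, so the share is a description and no test. The summed level of the list was 5359 to 8805 CPM in controls and 10938, 5482 and 9922 CPM in mutants, mostly from Hsd3b1 and Star, which the ovary also makes.

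Many ovulation genes were high in mutant 3 and, for some, in mutant 2. These genes respond to the luteinising hormone surge in granulosa and cumulus cells. The summed level of the list was 358.6 to 827.6 CPM in controls and 571.7, 925.7 and 2918 CPM in mutants 1 to 3. Much of the sum in controls and mutant 1 was Lhcgr, the receptor of that hormone, at 168.4 to 703.0 CPM in controls. Lhcgr went the other way, at 399.4, 80.5 and 166.7 CPM in mutants 1 to 3 (log2 fold change -0.77, SE 0.56, edgeR adjusted p = 0.818). Of 15 tested members, 12 had a positive and 3 a negative log2 fold change. All 3 mutants lay above all controls for 3 of the 15, Btc, Has2 and Adamts4, beside 2.67% of all tested genes. Mutant 1 stood at 2.62, 0.954 and 6.32 CPM for these, against no more than 2.16, 0.471 and 5.61 CPM in controls. Ereg, an EGF-like ligand, stood at 1.78, 2.79, 0.673, 1.74 and 0.668 CPM in controls and at 1.75, 10.2 and 545.3 CPM in mutants 1 to 3. Ptgs2, which makes prostaglandins, stood at 0.118 to 0.727 CPM in controls and at 0.318, 3.98 and 204.9 CPM in mutants. Pgr, the progesterone receptor, stood at 130.4 CPM in mutant 3 and at 1.06 to 2.19 CPM in the other 7 libraries. Sult1e1, which sulphates oestrogens, stood at 1033 CPM in mutant 3, 0.974 CPM in mutant 2, and no more than 0.224 CPM in the other 6. Adamts1, a matrix protease, was higher in mutant 2 than in mutant 3 (606.4 and 165.2 CPM), with 38.2 CPM in mutant 1 and 20.4 to 52.3 CPM in controls. Edn2, which contracts the follicle wall, stood at 33.4 CPM in mutant 2 and at no more than 3.01 CPM in the others. Over 6 libraries edgeR called 4 members higher, Adamts1, Adamts4, Il6 and Snap25 (adjusted p = 0.0269, 0.0268, 0.0293 and 0.0271). The call of Adamts1 was lost without control 2, 3, 4 or 5, that of Adamts4 without control 2, 4 or 5, and those of Il6 and Snap25 without control 2, 4 or 5 or mutant 3. No member was called by edgeR over 8 libraries, where the median log2 fold change of 15 tested members was 3.21. DESeq2 called 5 of the 17 members found higher over 8 libraries, Adamts1, Adamts4, Il6, Snap25 and Has2 (adjusted p from 0.000402 to 0.0119). The share over all 21309 genes with a DESeq2 adjusted p was 0.971%. DESeq2 gave no adjusted p for Pgr, Ptgs2, Ereg, Btc, Tnfaip6, Ptx3, Edn2 and Sult1e1. These members were thus not judged by it there, although the 17 include them. This list too was chosen with earlier results of these data known, so its shares are descriptions and no test. Immediate early genes were also highest in mutant 3: their summed level was 1978 CPM in mutant 3, against 647.5 and 433.5 CPM in mutants 1 and 2 and 370.9 to 790.6 CPM in controls.

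Steroid enzymes varied widely within both groups. Star, which brings cholesterol into mitochondria, stood at 586.6, 585.5, 80.0, 740.1 and 751.6 CPM in controls and at 630.0, 1016 and 6310 CPM in mutants. Hsd3b1 stood at 5241 to 7984 CPM in controls, 10154 CPM in mutant 1, and 3882 and 2808 CPM in mutants 2 and 3. Cyp11a1, the side-chain cleavage enzyme, lay between 2972 and 4839 CPM in controls and between 4162 and 6394 CPM in mutants. Cyp17a1 of theca cells ranged from 7.97 to 650.0 CPM among controls and from 5.48 to 349.5 CPM among mutants. Fdx1, the electron carrier of mitochondrial steroid enzymes, was the one of 14 members with all mutants above all controls, at 1269, 1022 and 1809 CPM against 441.4 to 990.6 CPM (log2 fold change 1.02, SE 0.29, edgeR adjusted p = 0.318). None of the 14 was called by edgeR or DESeq2 over 8 libraries or by edgeR over 6.

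**Figure D4:**
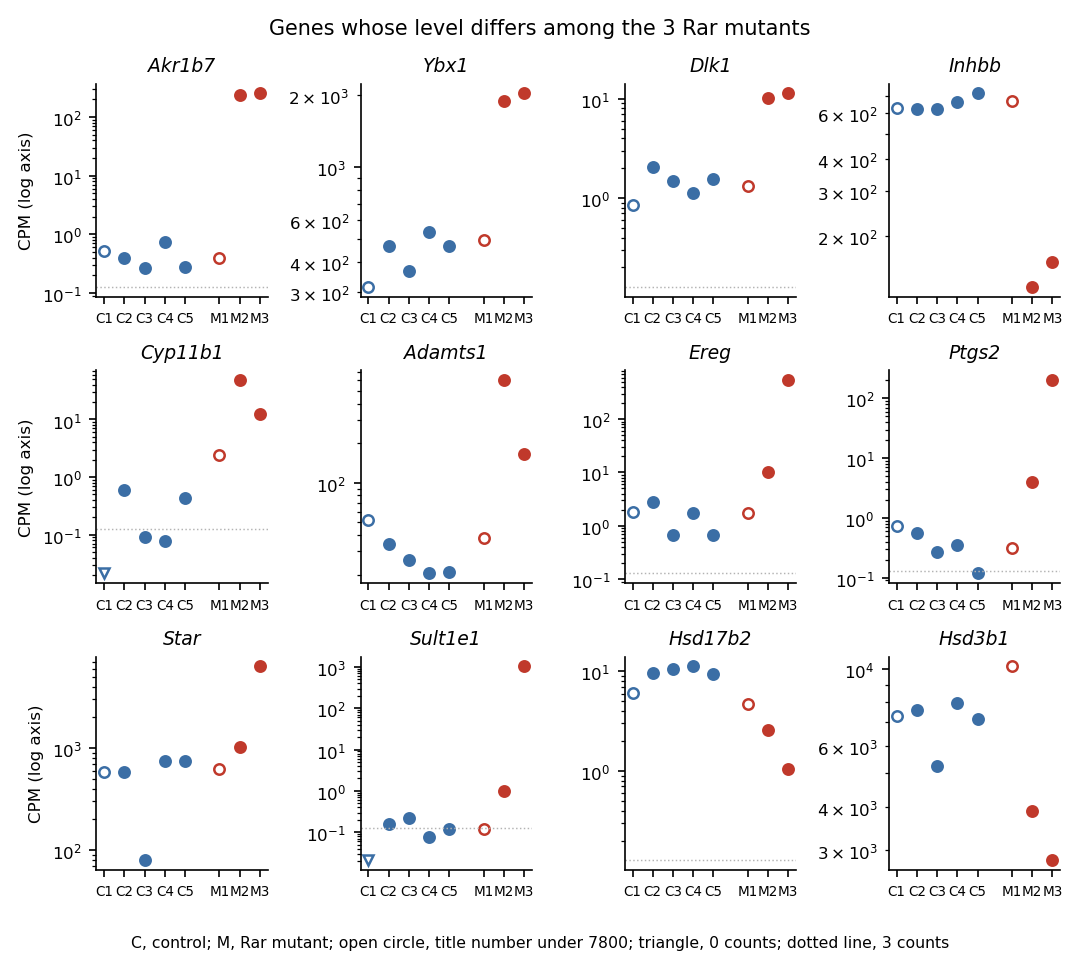
CPM of 12 genes whose level differs among the 3 Rar mutants, in each library on log axes (C, control; M, Rar mutant; open symbols, title number under 7800; triangle, 0 counts; dotted line, 3 counts). Akr1b7, Ybx1, Dlk1 and Inhbb separate mutants 2 and 3 from the other 6 libraries, and Ereg, Ptgs2, Star and Sult1e1 reach their highest level in mutant 3.

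Of the other gene groups, the circadian clock genes differed in a few members. Arntl, an activator of the clock, stood at 21.7, 12.6, 10.4, 14.3 and 19.6 CPM in controls and at 39.2, 39.1 and 24 CPM in mutants. Nr1d1, which represses Arntl, stood at 33.0, 24.9, 22.96, 54.0 and 42.3 CPM in controls and at 16.9, 10.8 and 9.08 CPM in mutants. Dbp, a clock output gene, stood at 22.4, 58.5, 22.5, 36.8 and 26.3 CPM in controls and at 15.5, 7.22 and 7.99 CPM in mutants. Their edgeR adjusted p over 8 libraries were 0.226, 0.177 and 0.21, and DESeq2 gave 0.0177, 0.00123 and 0.00237. The groups overlapped for the other 12 members.

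Levels of other cell types varied between libraries in both groups. The summed level of 24 oocyte genes was 426.4 CPM in mutant 1, against 1009 and 1260 CPM in mutants 2 and 3 and 920 to 1356 CPM in controls. Erythroid genes summed to 1960 and 2651 CPM in mutants 2 and 3, against 474.6 CPM in mutant 1, 1601 CPM in control 3, and 293.2 to 649.6 CPM in the other 4 controls. Erythroid levels thus moved with the genes high in mutants 2 and 3, and their part in that difference was not tested. Fat cell genes summed to 272.5 to 1023 CPM in controls and 209.9 to 626.4 CPM in mutants. Of 18 granulosa cell genes, 16 had a negative log2 fold change (median -0.49), and edgeR called Inhbb over 6 libraries. Theca cell and Hedgehog genes leaned the same way, with 12 of 13 negative (median -0.44). So did oocyte genes over 8 libraries, with 24 of 24 negative (median -0.34), while their median over 6 libraries was -0.05. Of 12 endothelial genes, Cldn5 of the tight junction stood at 32.2 to 39.7 CPM in controls and 19.5 to 23.8 CPM in mutants, with an edgeR adjusted p of 0.176 and a DESeq2 adjusted p of 0.00189. Macrophage, smooth muscle, interferon and proliferation genes had no member called in the 3 edgeR comparisons, and no member without overlap.

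**Figure D5:**
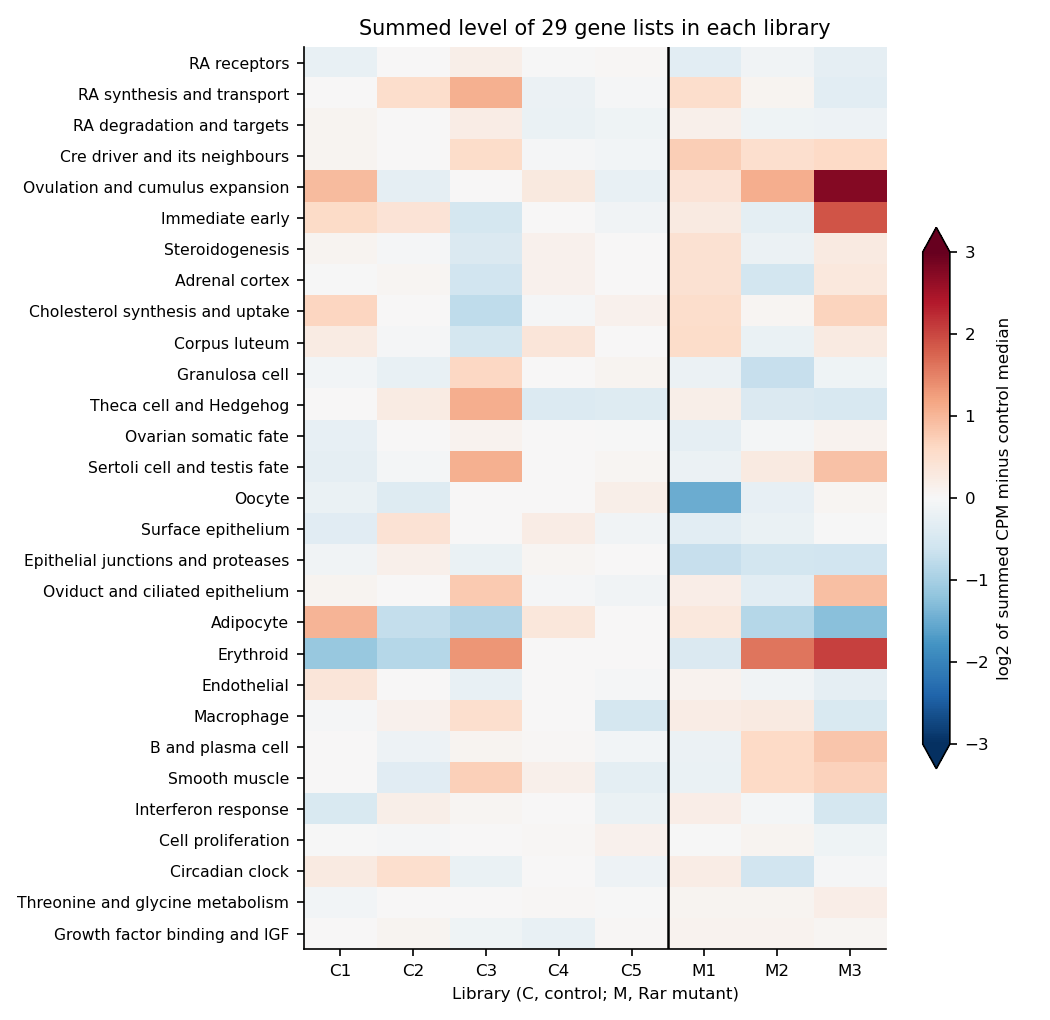
Summed CPM of each of 29 gene lists per library, as log2 minus the control median (red higher, blue lower, scale from -3 to 3; C, control; M, Rar mutant). Epithelial junction genes are lower in all 3 mutants, ovulation and immediate early genes are highest in mutant 3, and oocyte genes lowest in mutant 1.

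The authors' deposited table of differential expression lists 185 genes, 136 higher and 49 lower in mutants, from the same 8 libraries. Its highest log2 fold changes belong to Tdh, Pappa2, Prph, Sv2c and Eef1a2, with 3.33 for the highest, and its lowest to Gm19410, Gpr55, Sectm1b, Cnksr1 and St14, with -2.16 for the lowest. These are on another scale than the edgeR values here, which were 4.01 for Tdh. Gpr55 had -2.14 in the deposited table and -3.78 here, and Il6 1.48 and 4.12. Akr1b7 is not among the 185 genes. For 79 of the 136 higher genes all 3 mutants lay above all controls in the count table. For the other 57 exactly 2 mutants did, and in 53 of these the mutant not above was mutant 1. For 48 of the 49 lower genes all 3 mutants lay below all controls. DESeq2 as run here called 182 of the 185. The edgeR test called 1 of them over 8 libraries, 2 with the title-number term, and 76 over 6 libraries (69 higher, 7 lower). Prph and Sv2c, genes of neuronal filaments and synaptic vesicles, stood at 10.3, 36.6 and 26.1 CPM and at 1.95, 11.2 and 8.07 CPM in mutants 1 to 3. In controls they stood at 1.17 to 5.64 and 0.269 to 1.13 CPM. Sv2c was called over 6 libraries (edgeR adjusted p = 0.00774), a call lost without control 4, and Prph was not (0.0538).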

How the data were processed

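Polyadenylated RNA of whole ovaries was sequenced from a stranded library kit, per the labels. Per the submitters' processing notes, Trimmomatic 0.32, STAR 2.4.2a, SAMtools 1.0 and DESeq2 1.12.3 were used on GRCm38 (mm10); the counting tool, its strand setting and the annotation release are not given in the sources used here. The authors deposited raw counts per Ensembl gene, and a table of 185 genes whose columns are, per the file headers, mean counts (a normalised signal), log2 fold changes and their standard errors, Wald scores, and raw and adjusted p-values. An FPKM table was not used. Positions come from GENCODE M21 on the same build (24090 of 24306 identifiers), and 71 symbols stand on more than 1 identifier.

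Total counts were 23502220 to 25920131, so intervals and floors cover counting error only. Counts were tested with edgeR 4.0.16 in R 4.3.3 (TMM, filterByExpr, robust quasi-likelihood, two-sided, adjusted p under 0.05); DESeq2 1.42.0 was an alternative. Each SE is the fold change over the square root of its F statistic. Fits were tested on simulated data with no title-number shift and the same mean level in all mutants, so such differences were not covered. No 2 libraries of a group were duplicates. The rule named Rara, Rarb, Rarg, Nr5a1, called genes, the 10 uncalled genes of smallest p in each 8-library fit, up to 3 members of each of 29 lists and the 10 extremes of the deposited table. Other genes, and all those named for the 6-library comparison or for differing among mutants, were chosen after their values were seen. Members and lists were chosen with earlier results of these data known. Lists are described without a test.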

Additional observations from a re-analysis of the deposited data

Results flagged for a closer look

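Among 89 sets of 5 control values examined (59 genes, 29 list sums and the total counts), 14 had 1 control far from the other 4. Chance gives about 1 in 20 for separate sets of normally distributed values. The sets here share genes, and some genes were chosen after their values were seen, so an excess over chance was not tested. In 9 of the 14 sets control 3 stood apart. It was high for Rarb (4.48 CPM, the others 2.38 to 2.99), Nr5a1 (309.7 CPM, the others 162.4 to 197.2) and Cldn5 (39.7 CPM, the others 32.2 to 33.8), and low for Star (80.0 CPM, the others 585.5 to 751.6). It was also high for the summed levels of the Cre driver and its neighbours (464.1 CPM), Sertoli cell and testis fate (173.6 CPM), oviduct and ciliated epithelium (51.6 CPM) and erythroid genes (1601 CPM), and low for the adrenal cortex list (5359 CPM). Control 2 was high for Sez6l (0.903 CPM), Pappa2 (1.18 CPM) and Runx1 (58.3 CPM). Control 4 was high for Prph (5.64 CPM) and Edn2 (3.01 CPM). Groups of 3 mutants were not examined in this way.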

How the results depend on the processing

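Over 8 libraries the 1 call became 2 with RLE scaling, 2 without the low-count filter, 2 with all 10 libraries in 3 groups, 306 with DESeq2, 142 in the 6 libraries of higher title number, and 0 with the replicate number as a block; leaving out 1 library gave 1 to 219. The block left 1231 genes at an unadjusted p under 0.05. Correlations of same-numbered deviations were 0.44, 0.01 and 0.25, so the numbers were not taken as pairs; mutants 1 and 3 correlated best with their own number and mutant 2 did not. With the title-number term the 2 calls became 4 with a CPM of at least 1 in at least 3 libraries, 5 without the filter, 85 with 10 libraries and 582 with DESeq2; leaving out 1 library gave 1 to 142. Over 6 libraries, with settings chosen after seeing the data, the 142 calls became 90 with the CPM filter and 949 with DESeq2; leaving out 1 library gave 27 to 474. The causes of these shifts were not tested. Of 923 values of 58 named genes over 8 libraries, 5 turned: Rara (0.052) gave -0.0097 with the replicate block and -0.058 to 0.22 on leaving out 1 library, negative without control 1, mutant 2 or mutant 3. Edn2 (3.21) gave -0.64 to 3.83 there, negative without mutant 2. Tdh lost its call in 1 of them, the replicate block. Of 435 list medians, 40 moved by more than the spread of the controls. Depth limits genes near 3 counts, such as Cyp26a1 in mutants.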
